A study of Homo sapiens with 6 samples.

Results

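The metalloproteinase genes and their inhibitors were described here: the matrix metalloproteinases (MMP), the ADAM and ADAMTS proteases, and the tissue inhibitors of metalloproteinases (TIMP). They were taken by gene symbol, as every row of the deposited table named MMP, ADAM, ADAMTS or TIMP followed by a number and, in some, the letter A or B. The rule found 74 of 62703 rows, 24 for MMP, 27 for ADAM (ADAM6 in 2 of them), 19 for ADAMTS and 4 for TIMP genes, and 28 of them reached at least 1 TPM (a transcript level scaled by transcript length and to the library total) in at least 3 of the 6 libraries. The libraries came from 786-O cells, an established human clear cell renal cell carcinoma (ccRCC) line known to lack functional VHL protein, grown in RPMI-1640 with fetal bovine serum. The 3 control libraries were from cells labelled WT, titled 786-NC, and the 3 others from cells labelled OGT overexpressed. OGT adds single O-linked N-acetylglucosamine sugars to nuclear and cytosolic proteins. The labels give neither the vector nor whether the cells were 1 clone or a pool, and leave unsaid if replicates were grown separately. The p-values therefore cover only differences among these libraries, which may be technical. The series title links OGT to HIF-2α and tumour progression, and the question here was which protease and inhibitor genes differed in level when OGT was overexpressed.

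MMPs are zinc enzymes that cut collagens and other matrix proteins, and most are secreted as inactive precursors. MMP14 is a membrane-bound member that activates the precursor of the gelatinase MMP2 in a complex that holds TIMP2, and it is known as a HIF-2α target in VHL-deficient kidney cancer cells. ADAM proteases sit in the cell membrane and release the outer parts of growth factors, receptors and adhesion proteins, with ADAM10 and ADAM17 as the main sheddases. ADAMTS proteases are secreted, lack the membrane anchor and cut proteoglycans, procollagens and von Willebrand factor. The TIMPs bind the active site of these enzymes, TIMP1 and TIMP2 mainly in MMPs and TIMP3 also in ADAM and ADAMTS proteases.

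Promoter windows of the members were read from RefSeq (GRCh38.p14) to set their letters beside the levels, and 13 of the 28 members matched by symbol. The letters ACGTG, the core of the site that HIF proteins are known to bind, were searched on both strands (where the other strand has them they read CACGT) in the 250 bases before the start site. They stood in 5 of the 13 windows (ADAM10, ADAM12, ADAM17, MMP14 and TIMP1) and in 18.5% of all 35116 promoter windows of that length. The sequences below are those of the 5 windows that hold these letters, which capitals mark. For MMP14, ADAM12 and TIMP1 the stretch is the part of the window before the first annotated base of the gene, and for ADAM10 and ADAM17 it is 30 bases around the letters.
MMP14, chr14:22836335-22836556, plus strand: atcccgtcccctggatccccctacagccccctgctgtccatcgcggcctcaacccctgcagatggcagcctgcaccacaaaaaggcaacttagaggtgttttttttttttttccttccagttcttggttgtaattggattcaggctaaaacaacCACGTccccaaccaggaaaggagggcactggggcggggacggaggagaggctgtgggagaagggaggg
ADAM12, chr10:126388478-126388727, minus strand: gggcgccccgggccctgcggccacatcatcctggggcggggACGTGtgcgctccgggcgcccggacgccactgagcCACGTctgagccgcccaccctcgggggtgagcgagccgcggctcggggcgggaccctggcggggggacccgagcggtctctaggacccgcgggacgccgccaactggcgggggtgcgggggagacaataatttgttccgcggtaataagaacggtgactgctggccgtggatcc
ADAM10, chr15:58749833-58749862, minus strand: gtgcccgcgcgtCACGTGgtgaggaaggag
ADAM17, chr2:9555942-9555971, minus strand: agccccagctagACGTGacgggcggggccg
TIMP1, chrX:47582186-47582312, plus strand: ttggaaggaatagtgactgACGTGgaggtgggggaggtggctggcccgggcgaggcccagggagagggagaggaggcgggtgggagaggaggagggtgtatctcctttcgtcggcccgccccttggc
In ADAM10 the letters of both strands overlap in 1 run of 6 bases, which begins 143 bases before the start site, and in ADAM12 they occur apart, at 209 and 174 bases before it. In MMP14 they begin 96, in ADAM17 129 and in TIMP1 231 bases before the start. All these distances are to the start site of the RefSeq window, which for ADAM10 and ADAM17 lies within the GENCODE gene. With OGT overexpression 5 of the 5 genes with the letters and 4 of the 8 matched members without them were called higher on the values as deposited, where 39.1% of all tested genes were. Under the other scalings described below, only ADAM10 and ADAM12 of the 5 kept the call throughout. MMP14 was not called and TIMP1 was called lower after median centring (limma adjusted p = 0.233 and 0.00243). ADAM17 was not called after trend correction (adjusted p = 0.0591). The members without the letters were not counted under those scalings. The letters GCGTG, or CACGC for the other strand, are the other form of the HIF core and stood in 5 of the 13 windows, against 32.2% of all windows. For these the calls as deposited ran the other way, with 3 of the 5 genes that hold them called higher and 6 of the 8 without them. The letters TGAGTCA, bound by AP-1 factors, and TATAAA, also on both strands, stood in 0 of 13 windows, against 4.2% and 10.7%. These are matches of letters in a window, and binding was not measured.

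Each library summed to nearly the same TPM total, which keeps no read number, so depth and counting error are unknown. OGT itself was 22.57 to 23.62 TPM in the control and 270.87 to 352.92 TPM in the overexpressing libraries. Across 12645 genes tested with limma on log2(TPM + 1), 39.1% were called higher and 9.7% lower with OGT overexpression (Benjamini-Hochberg adjusted p below 0.05), and the median change of all tested genes was 0.30. In bulk RNA, fewer cells that express a gene and less RNA per cell cannot be told apart. That shift depended on scaling: quantile normalization brought it to 0.019, and median centring, in which every library's own median is subtracted, to -0.085. Changes followed GC content and length of the reference transcript (Spearman correlations across genes of -0.47 and 0.39), and a fit with each library's trend on both removed stands beside the results as the trend-corrected value. Of the renal carcinoma markers, PAX8 (124.78 to 209 TPM), VIM, KRT8 and KRT18 were high, PAX2 was 8.43 to 10.51 TPM, and CDH6 was 2.69 to 28.69 TPM. EPAS1, which encodes HIF-2α, was 23.72 to 24.81 TPM in control and 62.93 to 64.52 TPM in OGT libraries (log2 change 1.36 as deposited, limma adjusted p = 3.45e-05). Of these 7 renal carcinoma markers, EPAS1, VIM and PAX8 were called higher and KRT18 lower as deposited (limma adjusted p = 0.00103 for KRT18). After trend correction 3 were higher and 2 lower, and after median centring 2 were higher and 2 lower. Of 7 fibroblast, 6 endothelial and 6 leukocyte markers, 1 (CSF1R, 4.74 to 7.92 TPM) passed the filter, and COL3A1 and CDH5 were at 0 in every library. Summed levels in control and OGT libraries were 0.2 to 2.48 and 1.02 to 3.1 TPM for the fibroblast markers, 0.92 to 8.68 and 0.29 to 2.89 TPM for the endothelial, and 5.26 to 20.7 and 5.49 to 6.36 TPM for the leukocyte markers.

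Of the 28 tested members, 17 rose and 1 fell with OGT overexpression, against 39.1% and 9.7% of all tested genes. Their median log2 change was 0.54, against 0.30 for all tested genes, and 17 of the 28 lay above that all-gene median. By family, 5 of 11 MMP, 6 of 6 ADAM, 4 of 8 ADAMTS and 2 of 3 TIMP genes rose, and the one that fell was ADAMTS18. The values of the 2 groups did not overlap for 19 members in the upward and 4 in the downward direction, as for 46.2% and 12.4% of all tested genes. A rise of at least 1 on the log2 scale was called in 5 members (ADAM10, ADAM12, ADAM17, ADAMTS1 and ADAMTS9), against 10.7% of all tested genes. MMP3 and MMP16 passed the filter through the OGT libraries alone and so could hardly be lower there.

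The number of members that rose depended on the scaling of the libraries. It was 9 after quantile normalization (20.2% of all genes), 7 after median centring (15.3%) and 9 after trend correction (16.0%), and 4, 6 and 2 members were then lower (17.8%, 24.2% and 12.8% of all genes). The genes called higher under all 4 treatments were ADAM10, ADAM12, ADAMTS1, ADAMTS9 and TIMP2. The 2 members whose call turned from higher to lower under median centring were ADAM15 and TIMP1. With a replicate block 13 members rose and 1 fell (34.7% and 8.63% of all genes), and with both block and trend correction 6 rose and 1 fell (12.3% and 10.6%).

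**Figure D1:**
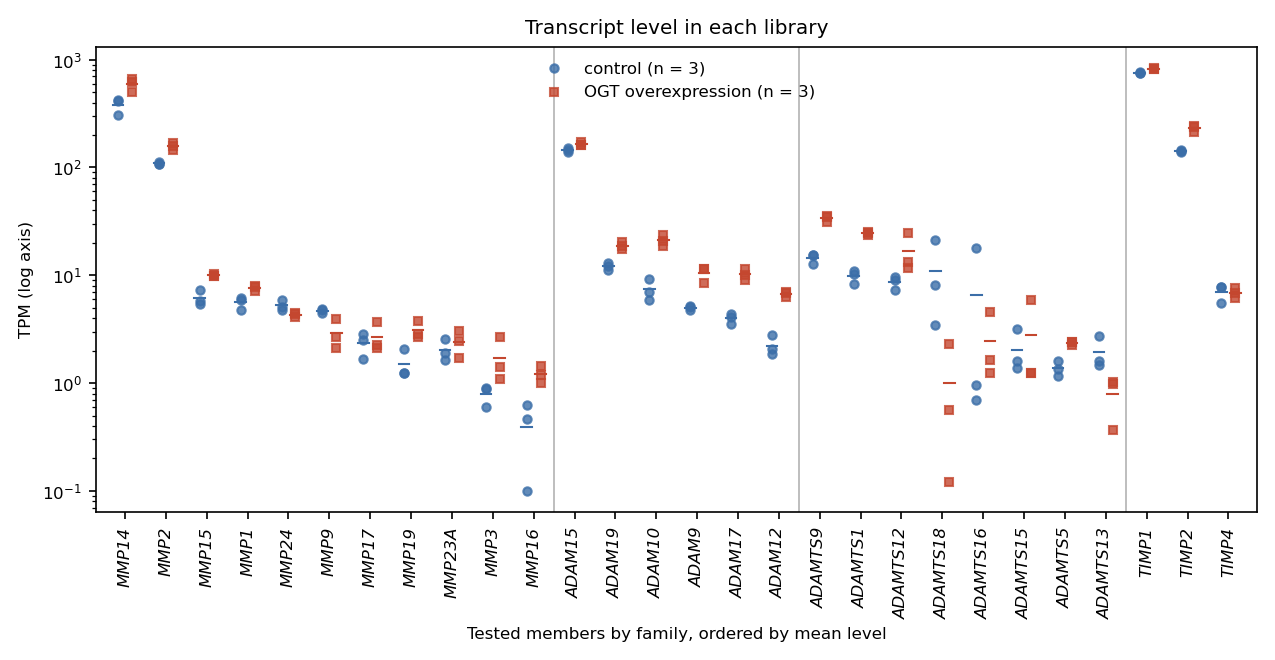
TPM on a log axis of the 28 tested members in each of the 3 control libraries (circles) and 3 OGT overexpression libraries (squares), by family and ordered by mean level, with horizontal lines at the group means. TIMP1, MMP14, TIMP2, ADAM15 and MMP2 stand at 106.64 TPM or more in all 6 libraries, and every other member stays at or below 35.22 TPM.

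A few members made up most of the family's transcripts. TIMP1, MMP14, TIMP2, ADAM15 and MMP2 together held 90.28 to 92.96% of the summed TPM of all 74 members in each library. TIMP1 alone held 44.5 to 46.94% in the control and 36.26 to 40.63% in the OGT libraries. The summed TPM was 1610 to 1699 in the control libraries and 2051 to 2276 in the OGT ones. For the MMP genes alone it was 440 to 565 TPM in control and 682 to 872 TPM in OGT libraries.

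**Figure D2:**
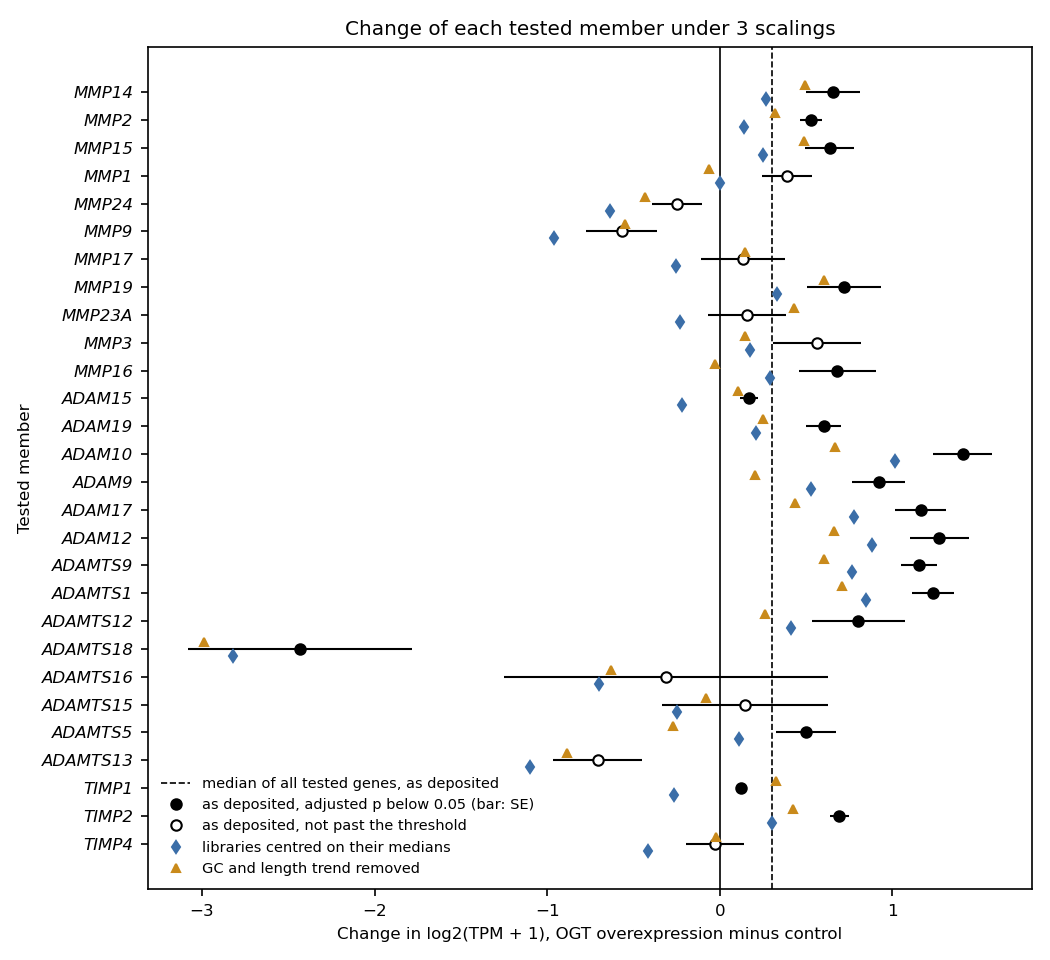
Change in log2(TPM + 1), OGT overexpression minus control, of each tested member as deposited (circles, bars are SE, filled where the limma adjusted p was below 0.05), with libraries centred on their medians (diamonds) and with the GC and length trend removed (triangles); the dashed line is the median of all tested genes as deposited. ADAM10, ADAM12, ADAMTS1, ADAMTS9 and TIMP2 are called higher under each, and other members, ADAM17 and MMP14 among them, also stay above 0 under each. TIMP1 and ADAM15 cross 0 under median centring and are called lower there. ADAMTS15, MMP17 and MMP23A cross 0 there as well without a call.

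MMP14 and MMP2, the membrane activator and the gelatinase it activates, both rose. MMP14 (ENSG00000157227, chromosome 14, 22836557 to 22849027, plus strand; positions are those of GENCODE release 29 on GRCh38) was 303.75, 410.94 and 421.3 TPM in the control and 667.24, 621.51 and 498.65 TPM in the OGT libraries. All OGT libraries were above all controls, with control replicate 1 the lowest of the 6. The log2 change was 0.66 (SE 0.156, limma adjusted p = 0.0131), from 379 ± 65.1 to 596 ± 87.2 TPM (mean ± SD, n = 3), and 0.49 after trend correction (limma adjusted p = 0.0408). Median centring gave 0.27 and ended the call (adjusted p = 0.233), as did the block together with trend correction (adjusted p = 0.0855).

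MMP2 (ENSG00000087245, chromosome 16, 55389700 to 55506691, plus strand) was 107.96, 106.64 and 113.37 TPM in the control and 169.01, 159.16 and 146.16 TPM in the OGT libraries. The groups were well apart, with a narrower spread than for MMP14. The log2 change was 0.53 (SE 0.0637, limma adjusted p = 0.000765), 0.32 after trend correction (adjusted p = 0.00409) and 0.14 after median centring, where it was not called (adjusted p = 0.114).

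Of the other membrane-bound MMPs, MMP15 rose, MMP16 was at the filter and MMP17 and MMP24 were not called. MMP15 was 5.36, 5.76 and 7.28 TPM in control and 9.78, 10.37 and 9.91 TPM in OGT libraries (log2 change 0.64, SE 0.141, limma adjusted p = 0.00913). It kept its call after trend correction (0.49, adjusted p = 0.0307) and lost it under quantile normalization and median centring (adjusted p = 0.235 and 0.211) and with block and trend correction together (adjusted p = 0.0656). MMP16 was 0.1, 0.46 and 0.62 TPM in control and 1.44, 1.19 and 1.01 TPM in OGT libraries. Its log2 change of 0.68 (limma adjusted p = 0.0396) was -0.029 after trend correction (adjusted p = 0.94) and dropping any 1 library except control replicate 3 ended the call (adjusted p between 0.0532 and 0.109). An antisense transcript over MMP16, AC090578.1, was listed at 31.1 TPM in OGT replicate 3 and at 0 to 0.09 TPM elsewhere, and reads from the 2 strands cannot be told apart here. MMP17 was 1.67 to 2.83 TPM in control and 2.1 to 3.68 TPM in OGT libraries, which overlap. MMP24 was 4.81 to 5.94 TPM in control and 4.06 to 4.43 TPM in OGT libraries, lower in each but not called (log2 change -0.25, adjusted p = 0.203). MMP24 was called lower after quantile normalization and median centring (adjusted p = 0.0164 and 0.0166), and MMP24OS, which overlaps it on the other strand, was 11.12 to 18.79 TPM.

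The secreted MMP genes other than MMP2 stood low in these cells, at most 7.93 TPM in any library, and of those tested MMP19 alone was called as deposited. MMP1, the interstitial collagenase, was 5.95, 6.12 and 4.74 TPM in control and 7.93, 7.83 and 7.1 TPM in OGT libraries. Each OGT library was above each control, yet the change was not called (log2 0.39, limma adjusted p = 0.0587) and was -0.065 after trend correction. MMP3, or stromelysin-1, lies in the same cluster of MMP genes on chromosome 11 and was 0.6 to 0.9 TPM in control and 1.1 to 2.67 TPM in OGT libraries (log2 change 0.56, adjusted p = 0.111). The other MMP genes of that cluster stayed below 1 TPM, with MMP10 at 0.07 to 0.73 TPM, MMP7 at 0 to 0.41 TPM, MMP13 at 0 to 0.15 TPM, and MMP8, MMP12, MMP20 and MMP27 at 0 in all 6 libraries.

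MMP9, the other gelatinase, stood lower in the OGT libraries, opposite to MMP2, but without a call as deposited. It was 4.8, 4.43 and 4.84 TPM in control and 2.68, 3.92 and 2.11 TPM in OGT libraries, with every OGT library below every control. The change of -0.57 was not called as deposited (SE 0.207, limma adjusted p = 0.0572), and was called after quantile normalization (-0.97, adjusted p = 0.00925), after median centring (-0.96, adjusted p = 0.00912) and when OGT replicate 2 was dropped (-0.75, adjusted p = 0.0301). In 10 of its 13 alternatives MMP9 was not called, among them trend correction (-0.55, limma adjusted p = 0.0828). MMP19 was 1.23, 2.07 and 1.23 TPM in control and 2.88, 2.69 and 3.74 TPM in OGT libraries (log2 change 0.72, adjusted p = 0.029), and trend correction ended the call (0.61, adjusted p = 0.0756), as did dropping any 1 library except control replicate 2 (adjusted p between 0.054 and 0.0818). MMP23A, annotated as a pseudogene, was 1.65 to 3.06 TPM with overlapping groups. It is uncertain because its near-identical coding copy MMP23B was listed at 0 to 0.75 TPM and the counting could split reads between them. No MMP gene was called lower by limma as deposited, and 1 (MMP9) had an unadjusted p below 0.05 in that direction.

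All 6 tested ADAM genes rose as deposited, by log2 changes from 0.17 to 1.41. ADAM10 (ENSG00000137845, chromosome 15, 58588807 to 58749978, minus strand), the constitutive sheddase of Notch receptors and cadherins, was 5.95, 6.95 and 9.25 TPM in control and 20.82, 23.64 and 18.63 TPM in OGT libraries. The lowest OGT library was above the highest control. The log2 change was 1.41 (SE 0.169, limma adjusted p = 0.000748), from 7.38 ± 1.69 to 21.0 ± 2.51 TPM (n = 3), and 0.67 after trend correction (adjusted p = 0.0284). Every one of its 14 alternatives kept the call (highest adjusted p = 0.0499).

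ADAM17 (ENSG00000151694, chromosome 2, 9488486 to 9556732, minus strand), which releases tumour necrosis factor and ligands of the EGF receptor, was 4.1, 3.53 and 4.38 TPM in control and 11.53, 9.08 and 10.06 TPM in OGT libraries. Its groups were far apart. The log2 change was 1.16 (SE 0.147, limma adjusted p = 0.000917), 0.77 after median centring and 0.44 after trend correction, where the call was lost (adjusted p = 0.0591). IAH1, which overlaps ADAM17 on the other strand, fell from 69.77 to 89.91 TPM in control to 48.27 to 60.15 TPM in OGT libraries.

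ADAM12, an ADAM with a secreted form that cuts IGF-binding proteins, was 2.77, 1.85 and 2.06 TPM in control and 6.87, 7.01 and 6.32 TPM in OGT libraries. Its log2 change of 1.27 (SE 0.171, limma adjusted p = 0.00119) was 0.66 after trend correction (adjusted p = 0.021), and it lost its call with replicate block and trend correction together (adjusted p = 0.0622). ADAM9, a membrane ADAM, was 5.2, 5.08 and 4.77 TPM in control and 11.53, 11.48 and 8.42 TPM in OGT libraries (log2 change 0.92, adjusted p = 0.00291). After trend correction ADAM9 was 0.20 and not called (adjusted p = 0.351). ADAM19, which was 11.19, 12.98 and 12.11 TPM in control and 20.41, 18.65 and 17.53 TPM in OGT libraries (log2 change 0.60, adjusted p = 0.00332), lost its call under quantile normalization, median centring and trend correction (0.26, 0.21 and 0.25).

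ADAM15, the most abundant ADAM gene, changed least. It was 151.61, 140.4 and 145.66 TPM in control and 160.28, 171.93 and 160.23 TPM in OGT libraries, a difference of 0.17 on the log2 scale (SE 0.0515, limma adjusted p = 0.0312), under the all-gene median. After median centring ADAM15 was called lower (-0.22, adjusted p = 0.0121), and as deposited the call ended when control replicate 2, control replicate 3, OGT replicate 1 or OGT replicate 2 was dropped (adjusted p between 0.0575 and 0.107). Changes across all genes differed with GC content, so that of each ADAM gene is given. ADAM10 and ADAM9 had reference transcripts of 38.3 and 39.4% GC, ADAM17 42.3%, ADAM12 47.0%, ADAM19 53.7% and ADAM15 62.7%. Over all tested genes the median change was 0.75 at 30 to 40% GC and 0.0089 at 60 to 65% GC. The part of this in the ADAM changes was not tested beyond the trend-corrected values above. No ADAM gene was lower as deposited, also 0 at an unadjusted limma p below 0.05.

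**Figure D3:**
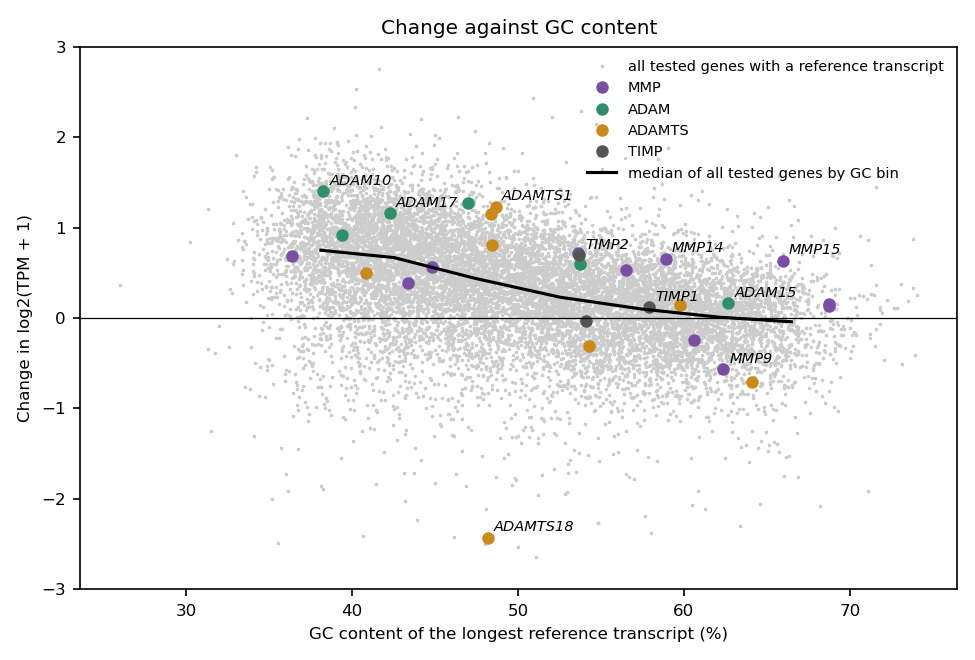
Change in log2(TPM + 1), OGT overexpression minus control, against the GC content of each gene's longest reference transcript, for all tested genes (grey; 7 lie outside the axis) and the tested members coloured by family, with the median of all tested genes in GC bins as a line. ADAM10, ADAM17 and ADAM9 lie where all genes are shifted upward, and MMP14 and MMP15 lie above the line where the median of all genes is near 0.

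Of the ADAMTS genes, ADAMTS1 and ADAMTS9 rose in every library and under every alternative. ADAMTS1 (ENSG00000154734, chromosome 21, 26835747 to 26845409, minus strand), a versican-cleaving protease that also binds VEGF, was 8.28, 10.96 and 10.35 TPM in control and 23.42, 25.33 and 24.52 TPM in OGT libraries. The OGT values were close together and all above the highest control. The log2 change was 1.23 (SE 0.12, limma adjusted p = 0.000339) and 0.71 after trend correction (adjusted p = 0.00694). ADAMTS9 (ENSG00000163638, chromosome 3, 64515654 to 64688000, minus strand), a proteoglycan-cleaving protease, was 12.85, 15.51 and 15.46 TPM in control and 34.77, 31.01 and 35.22 TPM in OGT libraries. Its log2 change was 1.15 (SE 0.104, adjusted p = 0.000264) and 0.61 after trend correction (adjusted p = 0.00898), and the antisense transcripts ADAMTS9-AS1 and ADAMTS9-AS2 reached at most 0.41 and 0.17 TPM. ADAMTS1 kept its call in all 14 alternatives (highest adjusted p = 0.0135), as did ADAMTS9 (highest adjusted p = 0.0257).

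ADAMTS12 and ADAMTS5 were called higher as deposited but not firmly. ADAMTS12 was 9.09, 7.28 and 9.68 TPM in control and 13.4, 11.78 and 24.77 TPM in OGT libraries, with OGT replicate 3 far above the rest (log2 change 0.80, SE 0.268, limma adjusted p = 0.0428). The call was lost after trend correction (0.26, adjusted p = 0.529), and whenever any control replicate or OGT replicate 1 was dropped (adjusted p between 0.0615 and 0.119). Without OGT replicate 3 ADAMTS12 was called at a log2 change of 0.49. ADAMTS5, an aggrecanase and the neighbour of ADAMTS1 on chromosome 21, was 1.59, 1.17 and 1.36 TPM in control and 2.41, 2.38 and 2.25 TPM in OGT libraries. Its log2 change of 0.50 (adjusted p = 0.0482) lost its call in each of 13 alternatives and was -0.27 after trend correction. An antisense transcript over ADAMTS5, AP001599.1, was listed at 18.06 TPM in control replicate 3 and at 0 in the other libraries.

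ADAMTS18 was the 1 member that fell, with a wide spread. It was 21.34, 8.07 and 3.48 TPM in control and 2.31, 0.12 and 0.56 TPM in OGT libraries, so that the groups did not overlap but the controls differed among themselves by more than the lowest control differed from the highest OGT library. The log2 change was -2.43 (SE 0.648, limma adjusted p = 0.0205) and -2.99 after trend correction (adjusted p = 0.0153). Dropping control replicate 2, OGT replicate 2 or OGT replicate 3 ended the call (adjusted p between 0.0512 and 0.0698), and the change was -1.83 without control replicate 1 (adjusted p = 0.0342). ADAMTS13, the protease of von Willebrand factor, was 2.72, 1.46 and 1.61 TPM in control and 0.37, 0.97 and 1.03 TPM in OGT libraries, all below the controls. It was not called as deposited (log2 change -0.71, adjusted p = 0.0579) and was called lower after quantile normalization, median centring and trend correction (adjusted p = 0.014, 0.0136 and 0.0474), the last of which was lost when the block was added (adjusted p = 0.107). REXO4, which overlaps ADAMTS13 on the other strand, was 32.64 to 35.08 TPM in both groups.

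ADAMTS15 and ADAMTS16 were set by single libraries. ADAMTS16 was 17.84 TPM in control replicate 1 and 0.95 and 0.7 TPM in the other controls, against 1.62, 4.53 and 1.25 TPM in OGT libraries. Its log2 change was -0.31 (limma adjusted p = 0.807), and with control replicate 1 dropped it was 0.81 (adjusted p = 0.158). ADAMTS15 was 5.91 TPM in OGT replicate 1 and 1.23 to 3.14 TPM in the 5 other libraries (log2 change 0.14, adjusted p = 0.827, and -0.40 without OGT replicate 1). Of the members that did not pass the filter, ADAM32 was 10.18 TPM in control replicate 1, ADAMTS14 was 15.37 TPM in control replicate 2 and ADAM21 was 9.12 TPM in OGT replicate 1, each below 1 TPM in all other libraries. Across all genes of the table, 125 were at 5 TPM or more in control replicate 1 and below 1 TPM in the 5 other libraries, against 21 to 57 for each of the other libraries taken in the same way. The leukocyte marker PTPRC showed this pattern too, at 12.23 TPM in control replicate 1 and at most 0.07 TPM elsewhere, while CD14 and CD3E stayed at 0 to 0.42 TPM. The endothelial markers KDR and PECAM1 were also highest in control replicate 1, at 3.91 and 4.22 TPM. The part of this in the member values was not tested.

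TIMP2 rose and TIMP1 stayed close to its control level. TIMP2 (ENSG00000035862, chromosome 17, 78852977 to 78925387, minus strand) was 137.94, 144.95 and 142.86 TPM in control and 241.34, 236.3 and 213.43 TPM in OGT libraries. All OGT libraries were far above the controls, a rise of 0.69 on the log2 scale (SE 0.0573, limma adjusted p = 0.000195), 0.42 after trend correction (adjusted p = 0.0011) and 0.30 after median centring. The call held in all 14 alternatives (highest adjusted p = 0.00795). An antisense transcript in the TIMP2 gene, AC022966.1, was listed at 0 to 87.47 TPM with no order by group. TIMP1 (ENSG00000102265, chromosome X, 47582313 to 47586789, plus strand), the most abundant member, was 755.8, 760.31 and 755.79 TPM in control and 825.43, 814.57 and 833.38 TPM in OGT libraries. The spread within groups was small, so that a ratio of means of 1.09 was called (log2 change 0.12, SE 0.0291, adjusted p = 0.0123). The TIMP1 change was 0.06 and not called after quantile normalization (adjusted p = 0.179), -0.27 and called lower after median centring (adjusted p = 0.00243), and 0.32 and called higher after trend correction (adjusted p = 0.000376).

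TIMP4 was 7.74, 5.58 and 7.8 TPM in control and 7.55, 6.85 and 6.12 TPM in OGT libraries, which overlap (log2 change -0.03, limma adjusted p = 0.906). SYN2, which overlaps it on the other strand, was 1.63 to 3.3 TPM. TIMP3, the inhibitor that also acts on ADAM17 and the aggrecanases, stayed under the filter at 0.11, 0.03 and 0.09 TPM in control and 0.3, 0.23 and 0.19 TPM in OGT libraries. No TIMP gene was called lower by limma as deposited, also 0 at an unadjusted p below 0.05.

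Ratios of members within a library do not depend on how libraries are scaled against each other. For 9 such ratios, an exact two-sided permutation test over the 6 libraries was made, in which 3 against 3 cannot give a p below 0.1. MMP14 to TIMP2 was 2.20, 2.84 and 2.95 in control and 2.77, 2.63 and 2.34 in OGT libraries, so the groups overlapped (exact p = 0.7). The MMP2 to TIMP2 ratio was 0.783, 0.736 and 0.794 in control and 0.70, 0.674 and 0.685 in OGT libraries, lower in all 3 (exact p = 0.1, Benjamini-Hochberg adjusted p = 0.18). Both MMP14 and TIMP2 stood higher against TIMP1 on the values as deposited. MMP14 to TIMP1 went from 0.50 ± 0.0853 to 0.723 ± 0.111 (n = 3, exact p = 0.1, adjusted p = 0.18), and TIMP2 to TIMP1 from 0.187 ± 0.00431 to 0.280 ± 0.0203 (n = 3, exact p = 0.1, adjusted p = 0.18), with no overlap in either. MMP2 to TIMP1 lay between 0.14 and 0.15 in control and between 0.175 and 0.205 in OGT libraries, and MMP14 to MMP2 overlapped at 2.81 to 3.85 and 3.41 to 3.95. After trend correction the log2 changes of MMP14, TIMP2, MMP2 and TIMP1 were 0.49, 0.42, 0.32 and 0.32. As deposited they were further apart, at 0.66, 0.69, 0.53 and 0.12. The reference transcript of TIMP1 has 1095 bases, against 3732 for MMP14, 3652 for TIMP2 and 3741 for MMP2.

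Among the proteases, ADAM10 to ADAM15 was 0.0393, 0.0495 and 0.0635 in control and 0.13, 0.138 and 0.116 in OGT libraries, again with no overlap (exact p = 0.1, adjusted p = 0.18). ADAM10 to ADAM17 lay between 1.45 and 2.11 in control and between 1.81 and 2.60 in OGT libraries, so that the 2 main sheddases showed no separation of the groups (exact p = 0.6). ADAMTS1 to ADAMTS9 lay between 0.644 and 0.707 in control and between 0.674 and 0.817 in OGT libraries (exact p = 0.4). A ratio within a library shows unequal change of its 2 genes and not which of them moved. Differences of GC content and transcript length between the 2 genes enter it.

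**Figure D4:**
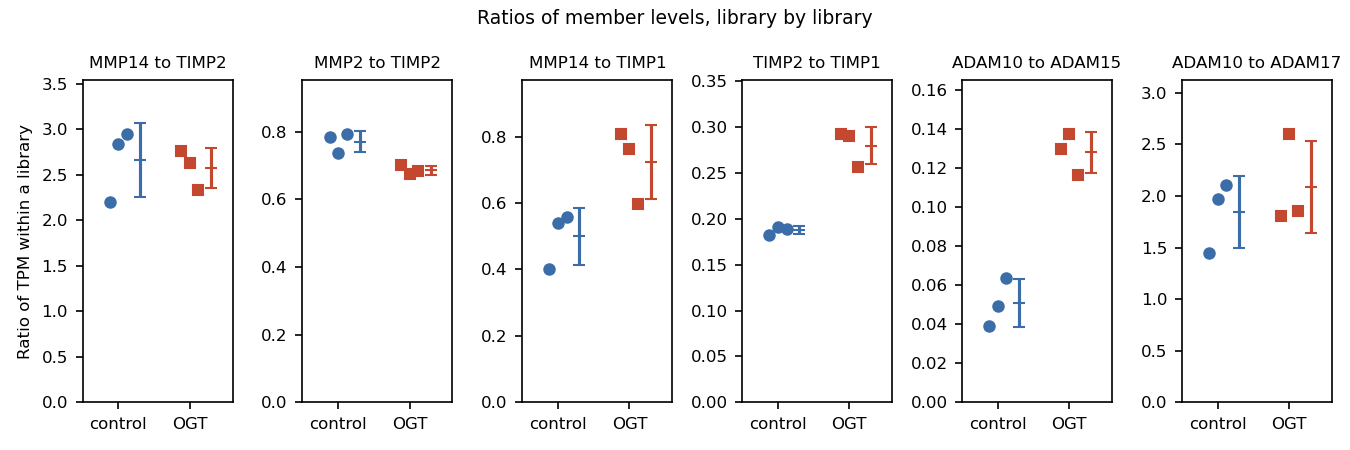
Ratios of TPM within each library for 6 combinations of members, as points for the 3 control (circles) and 3 OGT overexpression libraries (squares), with mean ± SD beside them and every axis starting at 0. The groups overlap for MMP14 to TIMP2 and ADAM10 to ADAM17, and are apart for the other 4.

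The remaining 46 members were not tested. Of these, 24 were at 0 in all 6 libraries (15 ADAM, 5 MMP and 4 ADAMTS genes), among them the testis-type genes ADAM2, ADAM18 and ADAM29 and the aggrecanase ADAMTS4. Another 17 were above 0 in some library but below 1 TPM in every one, up to 0.99 TPM. The 5 that reached 1 TPM somewhere were ADAM32, ADAMTS14 and ADAM21, described above, ADAM8, at 1.59 TPM in control replicate 2 and 0.11 to 0.39 TPM elsewhere, and ADAMTS10, at 1.32 TPM in OGT replicate 1 and 0.02 to 0.73 TPM elsewhere. The membrane protein ADAM22, which lacks protease activity, was 0.24 to 0.46 TPM in control and 0.53 to 0.99 TPM in OGT libraries, just outside the filter, where MMP16 and MMP3 stood just inside it.

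Genes listed for activation and trafficking, and for other inhibitors, clearance and docking, moved mostly upward as deposited. Of all tested genes, 39.1% rose and 9.7% fell, 16% and 12.8% after trend correction and 15.3% and 24.2% after median centring. Of 12 tested genes for activation and trafficking, 7 rose, 0 fell (limma; also 0 at an unadjusted p below 0.05) and the median log2 change was 0.37, with 5 higher after trend correction and 2 higher and 1 lower after median centring. One of the 7, PCSK5 (0.41 to 0.71 TPM in control, 1.42 to 1.92 TPM in OGT libraries), passed the filter through the OGT libraries alone. FURIN, the convertase that removes the prodomain of MMP14 and ADAM proteases, rose from 29.7 ± 2.63 to 47.1 ± 1.49 TPM (n = 3, limma adjusted p = 0.000882). RHBDF2, which encodes the iRhom that carries ADAM17 to the cell surface, rose from 37.6 ± 1.95 to 65.3 ± 3.34 TPM (n = 3, adjusted p = 0.000248, log2 change 0.78 and 0.66 after trend correction). RHBDF1, its relative, and TSPAN5, a tetraspanin partner of ADAM10, had log2 changes of 0.42 and 0.63 (trend-corrected 0.35 and 0.16, the latter not called), and neither was called under median centring (adjusted p = 0.764 and 0.151).

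Of 8 tested genes for other inhibitors, clearance and docking, 6 rose and 0 fell (limma; also 0 at an unadjusted p below 0.05), with a median log2 change of 0.77. After trend correction 4 rose and CST3 was lower, and after median centring 4 rose and 0 were lower. TFPI2, a matrix-bound serine protease inhibitor, rose from 169 ± 8.81 to 326 ± 12.1 TPM (n = 3, adjusted p = 5.84e-05). SERPINE2, BSG, which encodes the MMP inducer EMMPRIN, and CD44, a docking receptor of MMP14 and MMP9, had log2 changes of 0.80, 0.34 and 0.74, and trend-corrected changes of 0.30, 0.42 and 0.063, the last not called. BSG turned to -0.048 under median centring and was not called there (adjusted p = 0.42). RECK, a membrane inhibitor of MMP14 and ADAM10, had a log2 change of 1.30 and was not called (adjusted p = 0.0507). SPOCK1 of the same list was not called either (log2 change 0.28, limma adjusted p = 0.347), and A2M was at 0 TPM in every library. Of 10 tested related metalloproteinases and ADAMTS-like genes, to be read against the same all-gene shares, 7 rose and 0 fell (limma; also 0 at an unadjusted p below 0.05), with a median log2 change of 0.60, 3 higher after trend correction and 3 after median centring. MME, which encodes the membrane peptidase neprilysin, had the largest change, from 0.91 ± 0.306 to 7.29 ± 1.89 TPM (n = 3, log2 2.11, adjusted p = 0.000532, trend-corrected 1.33). ECE1, THSD4 and NRDC, the last encoding nardilysin, had log2 changes of 0.60, 1.11 and 0.88, and NRDC was not called after trend correction (0.27) or median centring (0.50).

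Known substrates were read beside the proteases. Beside them stand the shares of all tested genes, 39.1% higher and 9.7% lower as deposited, 16% and 12.8% after trend correction, and 15.3% and 24.2% after median centring, and the all-gene median of 0.30. Of 25 tested genes for shed membrane proteins, 20 rose and 0 fell (limma; 1 lower at an unadjusted p below 0.05), with a median log2 change of 0.79, against 13 higher and 2 lower after trend correction and 14 higher and 3 lower after median centring. Those with the smallest adjusted p were EREG, an EGF receptor ligand released by ADAM17 (9.05 ± 0.432 to 36.5 ± 0.92 TPM, n = 3, log2 1.90, trend-corrected 1.18, limma adjusted p = 3.45e-05), APP (log2 0.98), SDC1 (0.97) and the ADAM10 substrate CDH2 (1.32). TNF was 7.11 to 9.71 TPM in control and 5.6 to 6.64 TPM in OGT libraries, not called as deposited (log2 -0.37, limma adjusted p = 0.082) or after trend correction (adjusted p = 0.12). Quantile normalization and median centring called TNF lower (adjusted p = 0.00657 and 0.00639). CX3CL1, not called as deposited (log2 -0.17, adjusted p = 0.186), was called lower after quantile normalization, median centring and trend correction (adjusted p = 0.00599, 0.00424 and 0.00986). Of 26 tested matrix genes, 19 rose and COL7A1 fell, with a median log2 change of 0.51, against 12 higher and 4 lower after trend correction and 9 higher and 4 lower after median centring. FN1, encoding fibronectin, rose from 2401 ± 49.2 to 4911 ± 226 TPM (n = 3, log2 1.03, trend-corrected 0.57, adjusted p = 2.41e-05), and COL4A1, COL6A3 and LAMB1 had log2 changes of 0.95, 0.84 and 0.97. COL7A1, the collagen of anchoring fibrils, fell from 224 ± 9.9 to 149.9 ± 0.738 TPM (log2 -0.58, trend-corrected -0.76). The interstitial collagen genes COL1A1, COL1A2 and COL3A1, the known substrates of MMP1 and MMP14, reached at most 1.1 TPM in any library.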

How the data were processed

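RNA sequencing libraries were made from total RNA with a TruSeq RNA kit, per the labels' protocols. The authors deposited 1 value per gene and library as TPM for 62703 rows with human Ensembl identifiers, a unit read from the values, since the columns sum to 993936 to 996952. The sources used here name no aligner, counter or annotation. The mouse builds GRCm38 and mm10 stand in the submitters' processing notes, which the human identifiers contradict. Groups and replicate numbers came from the sample titles. Rows that reached 1 TPM in 3 or more libraries (12645) were tested with limma 3.58.1 under R 4.3.3 on the scale log2(TPM + 1). The settings were eBayes with trend and robust, two-sided, Benjamini-Hochberg over all tested genes and a threshold of 0.05. The method was tested on simulated data with changes planted in single genes and no shift of all genes, unlike the data here. Log2 changes on the scale log2(TPM + 1) understate changes of low genes. GC content, length and gene coordinates came from GENCODE release 29 (each gene's longest transcript, coding ones preferred; 97.65% of tested genes had one), and the trend was removed per library with natural splines of 4 degrees of freedom. Alternatives were a pseudocount of 0.1, no filter, a mean of at least 5 TPM, quantile normalization, median centring, trend removal, each replicate left out, and a replicate block with and without trend removal. Every tested member was named, those under the filter where a library reached 1 TPM, and up to 4 rising and falling genes of each of the 5 other lists (activation, inhibitors, related enzymes, shed and matrix substrates) by adjusted p. The single markers named, PCSK5, RECK, CST3, SPOCK1, A2M, TNF, CX3CL1, ADAM22, TIMP3, the collagen genes and other members below the filter that are named were chosen after their values were seen, as were the ratios. The members and lists were chosen with earlier results of these data known.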

Additional observations from a re-analysis of the deposited data

How the results depend on the processing

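As deposited, 4941 genes were called higher and 1227 lower. Higher and lower calls numbered 2558 and 2245 under quantile normalization, 1937 and 3066 under median centring, and 1974 and 1582 with the GC and length trend removed; higher calls numbered 1521 with replicate block and trend removal together. For the members, 17 higher and 1 lower became 9 and 4, 7 and 6, 9 and 2, and 6 and 1 under the same settings. With 1 library left out, 12 to 14 members were higher and 0 to 1 lower, and over all genes 3899 to 4604 higher and 989 to 1127 lower. Median centring turned the log2 change to -0.22 for ADAM15, -0.27 for TIMP1, -0.25 for ADAMTS15, -0.25 for MMP17 and -0.23 for MMP23A. Quantile normalization turned it to -0.24 for ADAMTS15, -0.022 for MMP1, -0.25 for MMP17 and -0.22 for MMP23A. Trend removal, with or without the block, turned it to -0.080 for ADAMTS15, -0.27 for ADAMTS5, -0.065 for MMP1 and -0.029 for MMP16. Leaving out 1 library gave -0.40 to 0.42 for ADAMTS15, -0.92 to 0.81 for ADAMTS16, -0.053 to 0.24 for MMP17 and -0.17 to 0.044 for TIMP4. The cause of these changes was not tested. A replicate block alone left 13 members higher and 1 lower, beside 4382 and 1091 of all genes, and took the calls of ADAM15, ADAMTS5, MMP16 and MMP19 (adjusted p = 0.08, 0.103, 0.0825 and 0.0682). Testing without the filter on low values took the calls of ADAM15, ADAMTS12, ADAMTS5, MMP16 and MMP19 (adjusted p = 0.066, 0.102, 0.0919, 0.0819 and 0.0629). The titles state no pairing: deviations of same-numbered libraries correlated at -0.0194, 0.00264 and 0.0166, and the best partner of a library bore its number in 1 case of 6. TPM gives no read number, so counting error at low levels is unknown.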
